A study of Mus musculus with 98 samples.

Results

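RNA sequencing counts of 44 brain libraries were compared by region. Of the 98 libraries in the series, 22 are labelled suprachiasmatic nucleus (SCN) and 22 arcuate nucleus (ARC), and these were taken by the region that ends their names. They are called SCN-labelled and ARC-labelled libraries below, because most listed SCN genes were not higher under the SCN label. All came from male FRGN mice aged 10 weeks, an immunodeficient line on a non-obese diabetic background. Every animal in both regions and both arms lacked Fah, Rag2 and Il2rg, received transplanted hepatocytes, and was given cycles of nitisinone, sulfamethoxazole with trimethoprim, and dextrose in its water. In the Hu arm the liver had been repopulated with human hepatocytes, in over 70% per the labels, and in the Mu arm with murine hepatocytes. The brain is that of the host mouse in both arms. Each region held 10 Hu and 12 Mu libraries, collected at ZT 2, 6, 10, 14, 18 and 22 (zeitgeber time, counted in hours from the start of the light phase), with 1 or 2 libraries per arm and time. The labels do not say that libraries of a group came from separate animals, so p-values measure the spread between these samples, which may be partly technical.

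The SCN is the central circadian pacemaker of mammals. It lies above the optic chiasm, and most of its neurons release GABA together with peptides such as vasoactive intestinal peptide (Vip), vasopressin (Avp), neuromedin S (Nms) and prokineticin 2 (Prok2). The homeobox genes Lhx1 and Six6 help form and maintain it. The ARC lies at the base of the third ventricle, where Agrp and Npy neurons drive feeding and Pomc and Cartpt neurons restrain it. Both nuclei are small, and a dissected block can carry the basal forebrain and preoptic area beside the SCN, or the ventromedial, lateral and mammillary hypothalamus beside the ARC.

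Total counts ranged from 25.5 to 34.9 × 1e6 in SCN-labelled and from 23.7 to 47.1 × 1e6 in ARC-labelled libraries. In each of the 20 groups with 2 libraries, the pair differed by more than sampling noise, with a mean chi-square per gene between 4.92 and 74.8. In all, 4 libraries stood apart (over 1.5 interquartile ranges outside the quartiles) on the first or second principal component of their own region, namely SCN Mu ZT 2 replicate 2, SCN Mu ZT 14 replicate 2, SCN Hu ZT 6 replicate 1 and ARC Mu ZT 14 replicate 1. Counts were still found for the disrupted genes, at 4.23 to 8.39 CPM of Fah, 5.31 to 9.85 CPM of Rag2 and 0.325 to 1.80 CPM of Il2rg over all 44 libraries. The deleted parts are not given in the sources used here, so these counts check nothing.

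Levels are given as CPM, the counts scaled to a library of 1e6 after TMM normalisation, and are compared between libraries, not between genes. Differences are log2 SCN-labelled minus ARC-labelled, with arm and ZT in the model, and a gene is called when the adjusted p of edgeR's quasi-likelihood test is under 0.05. The regions differed widely. Of 15105 genes tested, 10994 (72.8%) were called, 5488 (36.3%) higher and 5506 (36.5%) lower in SCN-labelled libraries. Most of these differences were small, since 80.0% of all genes lay within 0.5 of 0 on the log2 scale and the median difference was 0.00. A call together with more than a 2-fold difference was made for 986 genes (6.53%), with 381 (2.52%) higher and 605 (4.01%) lower in SCN-labelled libraries. In 320 genes (2.12%) every SCN-labelled library lay above every ARC-labelled library, and in 324 (2.14%) every one lay below. The lists below hold 256 genes in 35 lists, of which 243 were tested. Counts of called list members are to be read beside the 36.3% called higher and 36.5% called lower among all genes tested. Counts of members without overlap are to be read beside the 2.12% above and 2.14% below. In a bulk sample, fewer cells of a type and less RNA per cell cannot be told apart.

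The SCN peptides did not mark the SCN-labelled libraries. Of 8 SCN peptides and secreted signals, 1 was higher (Prok2), 4 were lower (Avp, Grp, Cck and C1ql3) and 3 were not called (Vip, Nms and Nmu), with a median log2 difference of -0.84. Vip, a peptide of the light-receiving core of the SCN (chr10:5639193-5647617), ranged from 1.07 to 23 CPM (median 3.82) in SCN-labelled and from 0.540 to 14.8 CPM (median 4.20) in ARC-labelled libraries. The groups overlapped almost fully, and the difference was 0.12 (SE 0.38, adjusted p = 0.793). Nms (chr1:38939149-38950276) ranged from 0.257 to 2.47 CPM (median 1.14) and from 0.212 to 1.74 CPM (median 0.892). These groups overlapped as well, with a difference of 0.41 (SE 0.24, adjusted p = 0.123).

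Prok2, a secreted SCN output signal (chr6:99711299-99726392), ranged from 0.160 to 3.22 CPM (median 0.890) in SCN-labelled and from 0.156 to 1.65 CPM (median 0.616) in ARC-labelled libraries. Only 5 of the 22 SCN-labelled libraries exceeded the highest ARC-labelled one. The difference was 0.78 (SE 0.23, adjusted p = 0.00317). Avp, which SCN shell neurons and magnocellular neurons both make (chr2:130580620-130582588), ranged from 25.9 to 385 CPM (median 64.4) and from 100.4 to 422 CPM (median 199). It was lower in SCN-labelled libraries by 1.34 on the log2 scale (SE 0.27, adjusted p = 2.79e-05), and 15 of these 22 libraries lay below the lowest ARC-labelled one. Gastrin releasing peptide (Grp) was lower as well (-1.21), as were cholecystokinin (Cck, -1.47) and C1ql3 (-1.44).

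Avp and Prok2 are known outputs of the molecular clock, whose activator ARNTL with CLOCK binds the E-box CACGTG. The 250 bases before their start sites are shown for that reason, from RefSeq (GRCm38.p6), 5′ to 3′, with E-boxes in capitals. Avp lies on the minus strand (window chr2:130582589-130582838), as does Prok2 (window chr6:99726393-99726642).
Avp: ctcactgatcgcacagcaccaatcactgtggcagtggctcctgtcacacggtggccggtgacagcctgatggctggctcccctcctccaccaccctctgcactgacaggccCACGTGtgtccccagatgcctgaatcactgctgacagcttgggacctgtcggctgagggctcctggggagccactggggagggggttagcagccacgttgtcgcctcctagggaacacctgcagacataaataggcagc
Prok2: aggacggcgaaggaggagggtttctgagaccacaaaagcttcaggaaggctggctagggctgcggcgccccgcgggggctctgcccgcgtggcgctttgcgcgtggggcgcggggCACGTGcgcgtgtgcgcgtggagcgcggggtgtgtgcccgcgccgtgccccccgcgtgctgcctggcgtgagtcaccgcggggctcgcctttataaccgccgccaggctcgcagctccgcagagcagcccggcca
The E-box starts at -139 for Avp and at -135 for Prok2, counted from the gene start. The search also covered TGACGTCA and TAATTA, and all of these motifs read the same on both strands. The windows of Vip and Nms, not shown, hold none of these motifs. CACGTG was found in 6.02% of 32817 RefSeq windows of this length, TGACGTCA in 1.55% and TAATTA in 4.85%. These matches describe the letters only, and Avp and Prok2 differed in opposite directions between the regions.

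Receptors and transcription factors of the SCN were mostly lower in the SCN-labelled libraries. Of 9 receptors and signalling genes, 1 was higher (Avpr1a, a vasopressin receptor, 0.59), 6 were lower and 2 were not called (Gpr176 and Adcyap1r1), with a median of -0.91. Vipr2, the receptor through which VIP synchronizes SCN neurons, ranged from 1.06 to 14.4 CPM (median 1.75) in SCN-labelled and from 5.03 to 11.2 CPM (median 6.66) in ARC-labelled libraries. Its difference was -1.5 (SE 0.22, adjusted p = 1.18e-07), and 20 of 22 SCN-labelled libraries lay below the lowest ARC-labelled one. The highest value in either region, 14.4 CPM, lay in the SCN-labelled library SCN Mu ZT 18 replicate 2. Syt10, a synaptotagmin enriched in the SCN, ranged from 0.788 to 5.91 CPM (median 1.77) and from 8.72 to 17.7 CPM (median 14.6), with no overlap. Rgs16, a regulator of G protein signalling with a strong SCN rhythm, ranged from 8.95 to 26.1 CPM (median 13.9) and from 19.8 to 94.1 CPM (median 43.6), and was lower in SCN-labelled libraries (-1.64, adjusted p = 5.27e-13). Grpr (-2.68), Prokr2 (-0.91) and Rasd1 (-0.63) were lower too.

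Among 7 transcription factors, 0 were higher, 5 were lower (Six6, Lhx1, Rora, Vax1 and Rorb) and 2 were not called (Six3 and Zfhx3), with a median of -0.93. Six6 (chr12:72939882-72944899) ranged from 0.147 to 7.59 CPM (median 0.785) in SCN-labelled and from 5.69 to 14.7 CPM (median 9.04) in ARC-labelled libraries. In 21 of 22 SCN-labelled libraries it lay below the lowest ARC-labelled value, and the difference was -2.99 (SE 0.29, adjusted p = 8.2e-12). Lhx1 (chr11:84517975-84525534) ranged from 0.404 to 10.2 CPM (median 3.81) and from 4.59 to 14.7 CPM (median 10.7). It was lower by 1.5 on the log2 scale (SE 0.18, adjusted p = 2.37e-09), with 15 of 22 SCN-labelled libraries below all ARC-labelled ones. The same library, SCN Mu ZT 18 replicate 2, was the highest SCN-labelled library for Lhx1, Six6, Vip and Vipr2, and SCN Mu ZT 2 replicate 2 was the lowest for Lhx1, Six6 and Vipr2. Six3, a homeobox gene of the anterior hypothalamus, ranged from 23.2 to 62.5 CPM (median 37.5) and from 26.0 to 45.0 CPM (median 31.9), with a difference of 0.17 (adjusted p = 0.0839). Over the 24 listed SCN genes, 2 were called higher and 15 lower in the libraries that carry the SCN label, 11 of them by more than 2-fold, against 36.5% and 4.01% of all genes tested in that direction. These are comparisons with ARC-labelled libraries, which also held genes of neighbouring tissue, described below. The part of that tissue in the differences of the SCN genes was not tested.

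**Figure D1:**
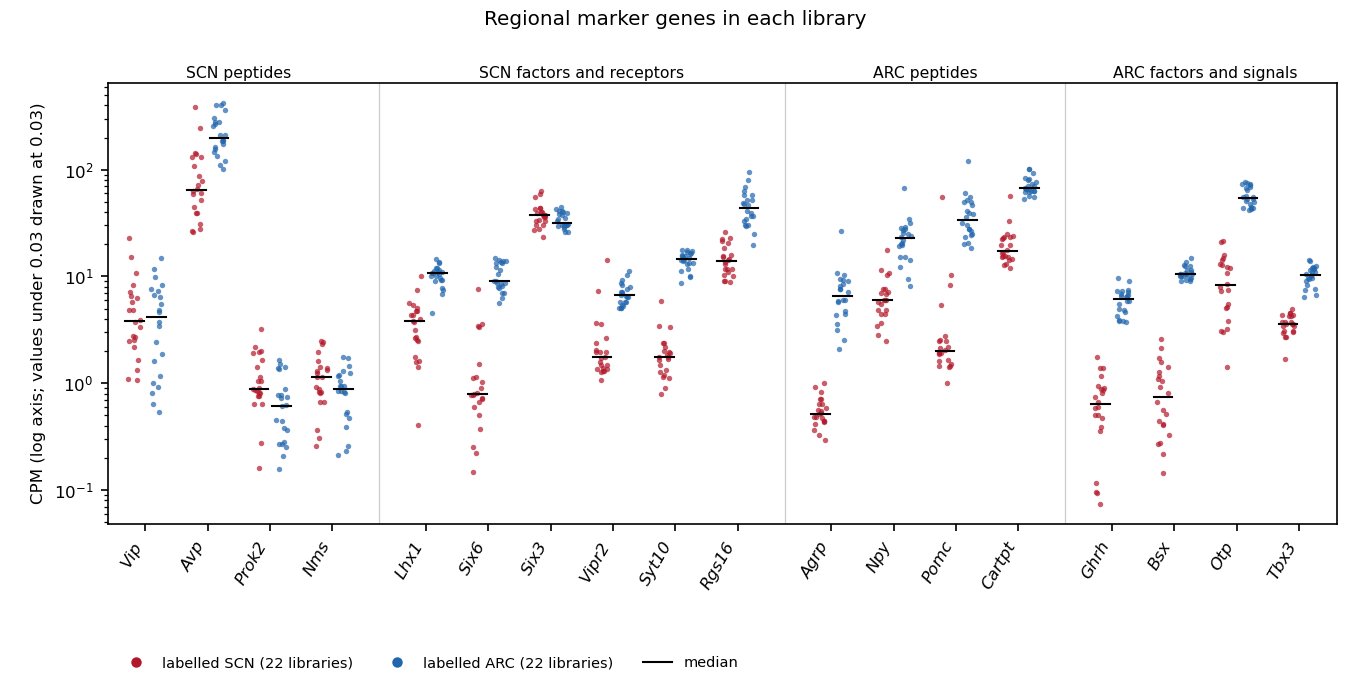
CPM of 18 regional marker genes in each of the 44 libraries, on a log axis, with 1 point per library, the 22 SCN-labelled libraries in red, the 22 ARC-labelled libraries in blue and the median as a black line. Six6, Lhx1, Vipr2, Syt10 and Rgs16 have lower medians in SCN-labelled libraries, Vip, Prok2 and Nms overlap, and the ARC peptides and factors are higher in ARC-labelled libraries.

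The ARC genes were mostly higher in the ARC-labelled libraries. Of 31 tested, 23 were called lower in SCN-labelled libraries, 15 of them by more than 2-fold. The shares in that direction among all genes tested were 36.5% and 4.01%. All 4 feeding peptides were lower in SCN-labelled libraries, with a median of -2.69. Agrp, a peptide that promotes feeding by blocking melanocortin receptors (chr8:105566695-105579845), ranged from 0.294 to 1 CPM (median 0.520) in SCN-labelled and from 2.10 to 26.5 CPM (median 6.62) in ARC-labelled libraries. The groups did not overlap, and the difference was -3.68 (SE 0.21, adjusted p = 3.53e-18). Npy (chr6:49822710-49829507) ranged from 2.51 to 17.8 CPM (median 6.05) and from 8.13 to 67.8 CPM (median 22.7), and 18 of 22 SCN-labelled libraries lay below all ARC-labelled ones. Its difference was -1.86 (SE 0.21, adjusted p = 2.57e-10).

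Pomc, the precursor of the melanocortin that restrains feeding (chr12:3954945-3960643), ranged from 1 to 55.8 CPM (median 2.01) in SCN-labelled and from 18.6 to 119.7 CPM (median 33.8) in ARC-labelled libraries. A single SCN-labelled library, SCN Mu ZT 6 replicate 1, held the 55.8 CPM, and the other 21 lay below every ARC-labelled one. The difference was -3.51 (SE 0.28, adjusted p = 3.08e-14). Cartpt (chr13:99898483-99910179) ranged from 11.9 to 57.1 CPM (median 17.3) and from 53.4 to 102 CPM (median 66.8), with 21 of 22 SCN-labelled libraries below all ARC-labelled ones. Its difference was -1.85 (SE 0.11, adjusted p = 9.25e-18).

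Of 9 tested neuroendocrine genes of the ARC, 6 were lower in SCN-labelled libraries, 0 were higher, and 3 were not called (Gal, Tac2 and Pnoc), with a median of -0.99. Kiss1 was not analysed here, because the table used holds no row of that name. Ghrh, which drives growth hormone release, ranged from 0.0734 to 1.76 CPM (median 0.636) and from 3.72 to 9.63 CPM (median 6.18), with no overlap and a difference of -3.17 (adjusted p = 3.91e-16). The dopamine transporter Slc6a3 (-2.90), Ddc (-1.41) and Th (-0.96) of dopaminergic neurons were lower in SCN-labelled libraries without overlap. Pdyn (-1.53) and Sst (-0.99) were lower with overlap. Among 10 receptors, 9 were lower, among them the ghrelin receptor Ghsr (-1.81), the melanocortin receptor Mc3r (-1.53) and the leptin receptor Lepr (-1.23), and 1 was higher, Npy2r (0.22). Of 8 transcription factors, 4 were lower, against 36.5% of all genes called lower, and 4 were not called (Nkx2-1, Hmx2, Hmx3 and Prdm12). Bsx, needed for Agrp and Npy expression, ranged from 0.145 to 2.57 CPM (median 0.743) and from 8.99 to 15 CPM (median 10.5), with no overlap and a difference of -3.6. Otp (-2.64) and Tbx3 (-1.52) did not overlap either, and Isl1 differed by -0.37.

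The ARC-labelled libraries also held genes of neighbouring hypothalamus, and these gave most of the largest differences among genes with a mean of at least 5 CPM in the higher region. All 4 lateral hypothalamic genes were lower in SCN-labelled libraries. Hcrt, the orexin precursor of lateral hypothalamic neurons (chr11:100761693-100762931), ranged from 0.0619 to 0.548 CPM (median 0.144) in SCN-labelled and from 74.2 to 179 CPM (median 99.8) in ARC-labelled libraries. The groups did not overlap, and the difference was -9.12 (SE 0.14, adjusted p = 1.34e-37). Pmch, the precursor of melanin-concentrating hormone (chr10:88091072-88092374), ranged from 0.809 to 5.13 CPM (median 1.47) and from 412 to 787 CPM (median 522). It did not overlap either, and differed by -8.39 (SE 0.14, adjusted p = 1.51e-36). Lhx9 (-1.45) and Nptx2 (-1.52) differed less. Hcrt and Chat, the latter described further below, lie at opposite ends of the comparison, and the 250 bases before their starts follow, both on the minus strand, from RefSeq (GRCm38.p6) with CACGTG in capitals (windows chr11:100762932-100763181 and chr14:32465910-32466159).
Hcrt: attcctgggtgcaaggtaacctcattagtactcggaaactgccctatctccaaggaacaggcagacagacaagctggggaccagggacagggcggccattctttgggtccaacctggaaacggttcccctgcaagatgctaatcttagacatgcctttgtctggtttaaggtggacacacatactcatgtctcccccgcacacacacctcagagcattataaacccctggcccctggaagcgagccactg
Chat: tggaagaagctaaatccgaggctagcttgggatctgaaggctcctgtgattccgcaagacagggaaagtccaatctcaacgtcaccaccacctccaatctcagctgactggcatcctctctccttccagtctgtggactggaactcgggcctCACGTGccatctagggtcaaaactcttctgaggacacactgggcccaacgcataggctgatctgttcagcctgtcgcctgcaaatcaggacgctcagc
Chat holds CACGTG at -98, and the Hcrt window holds none of the 3 motifs searched. The windows of Pmch and Lhx8, not shown, hold none either.

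The ventromedial hypothalamus, which borders the ARC, was represented by 4 genes, and all were lower in SCN-labelled libraries. Nr5a1, the steroidogenic factor that defines ventromedial neurons (chr2:38692656-38714542), ranged from 0 to 0.335 CPM (median 0.0657) and from 8.80 to 17.1 CPM (median 11.3), with no overlap and a difference of -6.96 (SE 0.17, adjusted p = 1.73e-30). Fezf1 (-2.85), Sox14 (-2.64) and the peptide Adcyap1 (-2.01) were also lower. All 5 mammillary and tuberomammillary genes were lower, with a median of -4.91. Hdc, which makes histamine in tuberomammillary neurons, ranged from 0.468 to 2.91 CPM (median 1.58) and from 19.9 to 60.2 CPM (median 37.9), and differed by -4.60 without overlap. Barhl1 (-5.44), Lmx1a (-4.91) and Foxb1 (-2.11) were lower too. Npvf, a peptide of the dorsomedial hypothalamus, was among the 10 genes with the largest ARC excess, at 0 to 0.0735 CPM (median 0.0311) against 3.26 to 9.52 CPM (median 5.94) and a difference of -7.72. Wnt9b (-5.80) and the neurofilament gene Prph (-4.16) belonged to the same group, as did Hcrt, Pmch, Nr5a1, Hdc, Shox2 and Lcor. In SCN-labelled libraries several of these genes were near the floor of counting, with 17 counts of Npvf, 28 of Barhl1, 47 of Lmx1a, 55 of Wnt9b and 59 of Nr5a1 summed over all 22. Their fitted differences therefore rest on few counts, and the direction is firmer than the size.

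Genes of the paraventricular and supraoptic nuclei followed the same direction in 4 of 5 cases. Oxt, the oxytocin precursor, ranged from 2.79 to 136 CPM (median 40.0) and from 89.9 to 203 CPM (median 138), with 18 of 22 SCN-labelled libraries below all ARC-labelled ones and a difference of -1.56 (adjusted p = 5.08e-06). Trh (-1.66), Sim1 (-2.37) and Avp were lower in SCN-labelled libraries, and Crh was not called (-0.02, adjusted p = 0.938). Thalamic genes were lower in 5 of 5 cases, but varied strongly among ARC-labelled libraries. Shox2, a thalamic homeobox gene, ranged from 0.0325 to 0.483 CPM (median 0.206) and from 1.90 to 87.6 CPM (median 28.1), with a difference of -6.86. The range among ARC-labelled libraries alone spans more than an order of magnitude, from ARC Mu ZT 6 replicate 1 to ARC Mu ZT 22 replicate 1. Ramp3 (-3.83), Tcf7l2 (-1.36), Gbx2 (-1.10) and Prkcd (-1.03) were also lower. At ZT 6 alone Prkcd, Tcf7l2 and Gbx2 had the other sign, and Prkcd was called higher there at 1.51.

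Pituitary genes appeared in some libraries of both regions. Cga, the common subunit of glycoprotein hormones, ranged from 0 to 0.551 CPM (median 0.0678) in SCN-labelled and from 0 to 12.4 CPM (median 4.63) in ARC-labelled libraries, with a difference of -4.93 (adjusted p = 6.01e-10). The lowest ARC-labelled value lay below the highest SCN-labelled one, and 4 ARC-labelled libraries held at most 3 counts. Lhb (-2.79) and Lhx3 (-1.02) were lower in SCN-labelled libraries, and the other 6 members of the list did not pass the filter on low counts. Gh, the growth hormone gene and 1 of these 6, did not follow Cga, and ranged from 0 to 15.1 CPM (median 0.154) in SCN-labelled and from 0 to 28.9 CPM (median 0.0922) in ARC-labelled libraries. Its highest SCN-labelled value lay in SCN Mu ZT 14 replicate 1, which also had the highest SCN-labelled sum of the list. The summed level of the 9 members ranged from 0.561 to 17.2 CPM in SCN-labelled and from 1.07 to 43.2 CPM in ARC-labelled libraries. The part of neighbouring tissue in the differences of ARC genes was not tested.

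Of the 35 lists, the cholinergic one had the highest median difference. All 4 cholinergic genes were higher there without overlap, with a median of 4.69. Chat, which makes acetylcholine (chr14:32408203-32465909), ranged from 21.5 to 85.8 CPM (median 67.1) in SCN-labelled and from 0.675 to 2.55 CPM (median 1.32) in ARC-labelled libraries. The difference was 5.52 (SE 0.15, adjusted p = 1.03e-28). Lhx8, a LIM homeobox gene of cholinergic forebrain neurons (chr3:154306288-154330560), ranged from 18.3 to 78.2 CPM (median 63.2) and from 0.208 to 6.90 CPM (median 2.01), and differed by 4.68 (SE 0.22, adjusted p = 1.17e-20). The choline transporter Slc5a7 differed by 4.70 and the vesicular acetylcholine transporter Slc18a3 by 4.35. The lowest SCN-labelled values lay in SCN Mu ZT 10 replicate 2 for Chat and Slc5a7 and in SCN Mu ZT 2 replicate 2 for Lhx8 and Slc18a3, and these too stood above every ARC-labelled library.

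The 10 genes with the largest excess in SCN-labelled libraries included these 4 and Gbx1, Ngfr, Slc10a4, Insrr and Lhx6. Gbx1, a homeobox gene (chr5:24504426-24526848), ranged from 12 to 50.5 CPM (median 39.3) and from 0.420 to 1.06 CPM (median 0.685), with the largest difference of these, 5.67 (SE 0.16, adjusted p = 8.69e-29). Ngfr (4.11) encodes a neurotrophin receptor that basal forebrain cholinergic neurons carry. Slc10a4 (3.93) encodes a protein of cholinergic and monoaminergic vesicles, and Insrr (3.62) a relative of the insulin receptor. Lhx6, a factor of GABA neurons born in the medial ganglionic eminence, ranged from 42.3 to 153 CPM (median 115) and from 3.95 to 17.2 CPM (median 10.5). In all 10 of these genes the regions did not overlap, but they were picked for their large difference in these same libraries. Among all genes tested, 2.12% had every SCN-labelled library above every ARC-labelled one.

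Striatal genes were higher in SCN-labelled libraries in 8 of 9 cases, with a median of 0.90. Adora2a, the adenosine receptor of striatal projection neurons, ranged from 1.68 to 70.3 CPM (median 12.7) and from 0.680 to 1.79 CPM (median 1.44), with a difference of 3.46 (adjusted p = 4.93e-13). Drd1 (2.05), a dopamine receptor gene, and Ppp1r1b (1.99) were higher by about 4-fold, and Tac1 was lower (-0.85). The summed striatal level ranged from 317 to 1380.0 CPM in SCN-labelled and from 283 to 366 CPM in ARC-labelled libraries. Of 6 tested telencephalic genes, 2 were higher, 1 was lower and 3 were not called (Slc17a7, Neurod2 and Neurod6), against 36.3% of all genes called higher. Their median of 0.90 turned to -0.21 without the 4 libraries that stand apart. Tbr1, a T-box factor of cortical glutamatergic neurons, ranged from 13.4 to 66.2 CPM (median 23.1) and from 3.34 to 9.08 CPM (median 5.69), with no overlap and a difference of 2.19 (adjusted p = 1.34e-16).

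Slc17a7, the vesicular glutamate transporter of cortical neurons, was uneven among libraries. It ranged from 1.68 to 684 CPM (median 4.96) in SCN-labelled and from 1.25 to 74.9 CPM (median 19.4) in ARC-labelled libraries. The highest values lay in SCN Mu ZT 2 replicate 2, SCN Mu ZT 14 replicate 2 and SCN Hu ZT 2 replicate 1. Its difference of 0.63, positive although the SCN-labelled median was lower, was not called (adjusted p = 0.428), and it turned to -0.56 without the 4 libraries that stand apart. Preoptic genes were higher in 3 of 5 cases, against 36.3% of all genes called higher. These were Gnrh1, the gonadotropin releasing hormone gene, at 2.04, Nts at 0.99 and Moxd1 at 0.56. Calcr was lower (-1.04), and Cyp19a1 was not called. The part of basal forebrain and other telencephalic tissue in the SCN-labelled profile was not tested.

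**Figure D2:**
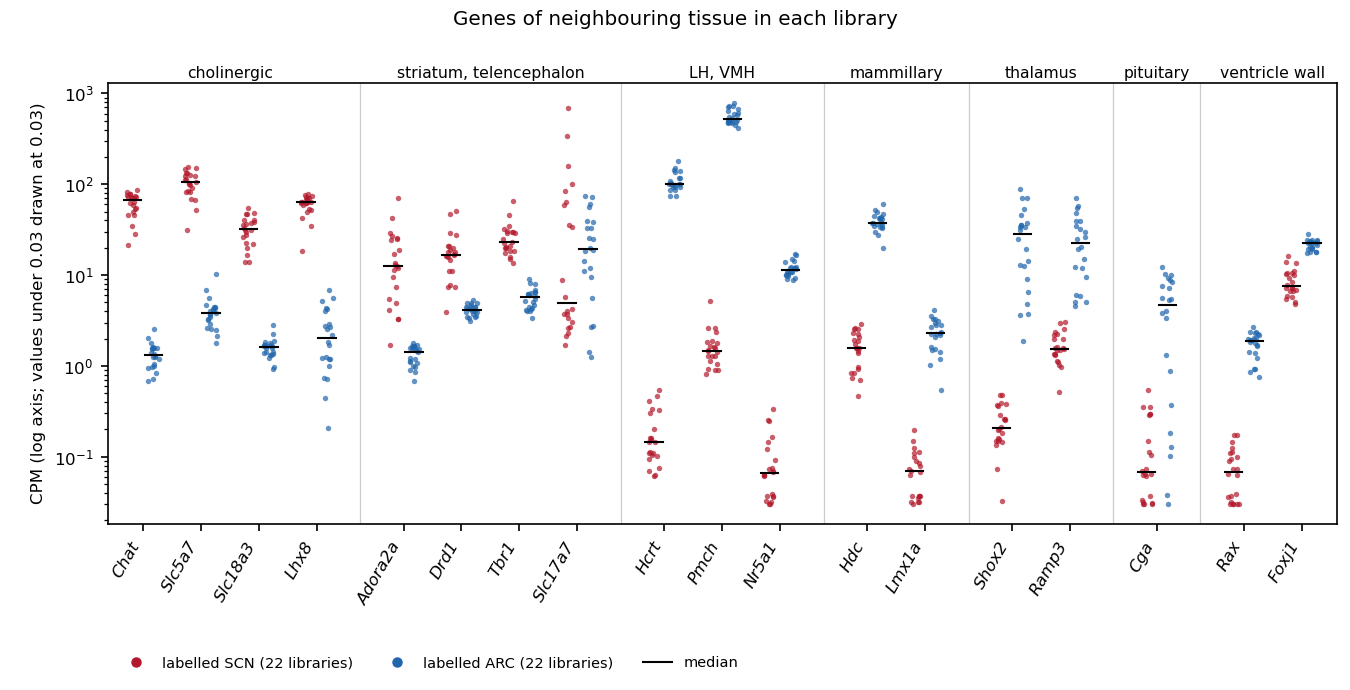
CPM of 18 genes of neighbouring tissue in each library, on a log axis, with SCN-labelled libraries in red, ARC-labelled in blue and the median as a black line, and with values under 0.03 drawn at 0.03 (LH, lateral hypothalamus; VMH, ventromedial hypothalamus). Cholinergic genes and Tbr1 are higher in every SCN-labelled library, Hcrt, Pmch, Nr5a1, Hdc, Shox2 and Rax are higher in every ARC-labelled library, and Slc17a7, Shox2 and Cga spread widely within a region.

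Neuron classes differed in the transmitter they use. Of 9 GABA genes, 8 were higher in SCN-labelled libraries, 0 were lower and Dlx1 was not called, with a median of 1.04. Gad1, which makes GABA, ranged from 687 to 1449 CPM (median 1073) and from 282 to 512 CPM (median 408), with no overlap and a difference of 1.4. The vesicular transporter Slc32a1 differed by 1.04, and the homeobox gene Dlx5 by 1.14. Slc17a6, the glutamate transporter of most hypothalamic excitatory neurons, ranged from 67.0 to 180.5 CPM (median 116) and from 295 to 588 CPM (median 410.0). It was lower in SCN-labelled libraries without overlap (-1.78), while Slc17a8 was higher (1.08). All 4 dopaminergic genes, of which Th, Ddc and Slc6a3 also stand in the ARC list, were lower without overlap, and Slc18a2 differed by -1.96. Of the serotonergic genes only Tph2 passed the filter on low counts, and it was higher (0.45) at 0.398 to 1.11 CPM (median 0.583) against 0.244 to 0.721 CPM (median 0.477). Pan-neuronal genes were higher in 8 of 11 cases, but by little, with a median of 0.29. Nefm (1.05) was the largest of these and Map2 was lower (-0.56).

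Glial genes differed little between the regions. Astrocyte genes were split, with 3 of 12 higher, 5 lower and 4 not called and a median of -0.07. Agt (-0.60) and Aldoc (-0.31) were lower in SCN-labelled libraries, and Gfap was higher (0.36). Myelin genes were higher in 5 of 12 cases and lower in 1 (Ugt8a), with a median of 0.09. Mbp, a major myelin protein gene, ranged from 1685 to 2816 CPM (median 2335) and from 1756 to 2681 CPM (median 2199), and was not called (0.10, adjusted p = 0.0979). Oligodendrocyte precursor genes were split as well, with 3 of 7 higher and 2 lower. Microglial genes were higher in 7 of 10 cases and lower in 0, yet by a median of only 0.15, with Csf1r at 0.33. In all libraries, the shares of astrocyte, myelin and precursor genes called in one direction were near the background of 36.3% or 36.5%. Without the 4 libraries that stand apart, 8 of the 12 astrocyte genes were called lower and 3 higher, with a median of -0.12. Adjusting for GC content left 5 microglial genes higher and made 7 myelin genes higher.

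Genes of the ventricle wall had larger differences. All 6 ependymal genes were lower in SCN-labelled libraries, 5 of them without overlap, with a median of -1.89. Foxj1, the factor of motile cilia, ranged from 4.81 to 16 CPM (median 7.5) and from 17.5 to 28.2 CPM (median 22.5), with a difference of -1.35 (adjusted p = 6.6e-14). Among 9 tanycyte genes, 5 were lower, 2 were higher and 2 were not called. Rax, a defining gene of tanycytes with 46 counts over all SCN-labelled libraries, ranged from 0 to 0.176 CPM (median 0.0689) and from 0.765 to 2.69 CPM (median 1.89), with no overlap and a difference of -4.55 (SE 0.23, adjusted p = 5.84e-20). Scn7a (-2.04) and Fgf10 (-1.29) did not overlap either. Crym (1.99) and Frzb (0.90) were higher in SCN-labelled libraries. Crym is also a telencephalic gene, and it reached 58.1 CPM in SCN-labelled libraries.

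Of the vessel and membrane genes, those of endothelium, mural cells and meninges were mostly higher in SCN-labelled libraries. All 7 endothelial genes were higher, with a median of 0.56, and Cldn5, a tight junction gene, ranged from 17.7 to 48.3 CPM (median 25.1) and from 9.63 to 30.1 CPM (median 18.5). Mural cell genes were higher in 6 of 8 cases and meningeal genes in 8 of 8, with medians of 0.56 and 1.37. Acta2, the actin of arterial smooth muscle, ranged from 3.23 to 89.1 CPM (median 5.69) and from 1.41 to 6.73 CPM (median 3.6), and its difference fell from 1.58 to 0.98 without the 4 libraries that stand apart. Slc22a6, a meningeal transporter, differed by 2.47, and Igf2 by 1.38. Without those 4 libraries 6 of the 8 meningeal genes were called higher, with a median of 1.05. The highest summed meningeal level, 507 CPM, lay in SCN Hu ZT 6 replicate 1, against 49.9 to 139.9 CPM in ARC-labelled libraries. Of the choroid plexus genes 2 of 6 were higher and 2 lower, and Ttr overlapped fully (0.17, adjusted p = 0.735). Folr1 was lower without overlap (-2.75). The 4 tested blood genes had a median of 0.28, with 0 called in all libraries and 1 called higher without the 4 libraries that stand apart. Of these Hba-a1 lay at the threshold (0.47, adjusted p = 0.0520) and passed it in some fits that left out 1 library. With a replicate block, which compares libraries of equal arm, time and replicate number, edgeR's test called 3 of the 4 higher. These were Hba-a1 (0.49, adjusted p = 0.000319) and Hbb-bs (0.27, adjusted p = 0.0200), which encode globin chains, and Alas2 (0.36, adjusted p = 0.00401), a heme synthesis enzyme, while Hbb-bt gave 0.22 (adjusted p = 0.0710).

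**Figure D3:**
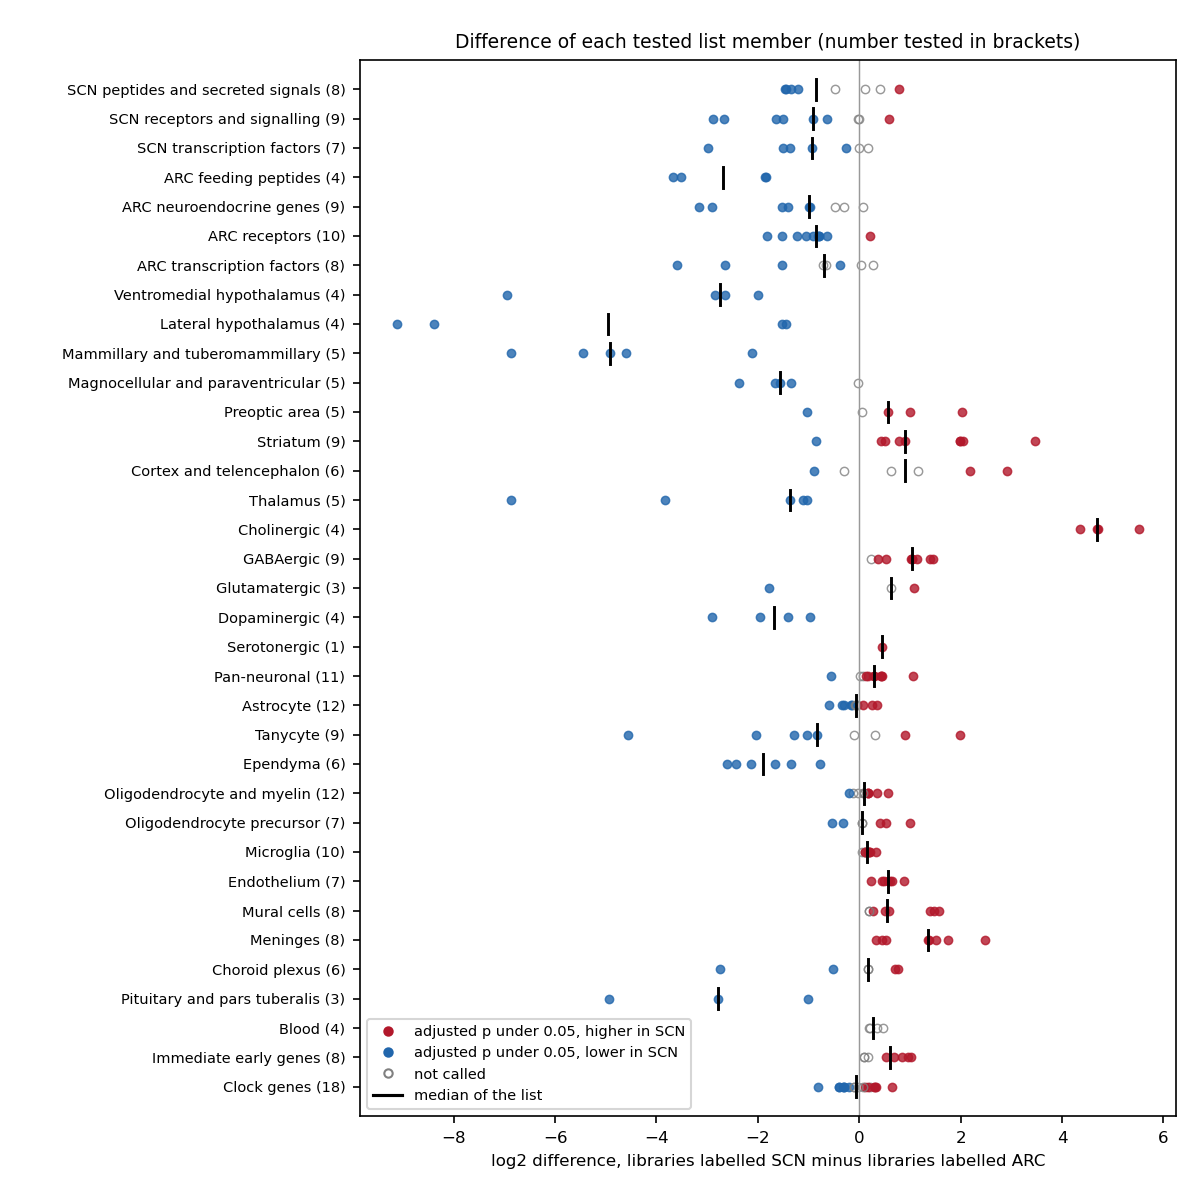
The log2 difference of each tested member of the 35 lists, SCN-labelled minus ARC-labelled, with filled red points called higher, filled blue points called lower, open points not called and black bars for the median of each list. The medians of the ARC, ventromedial, lateral hypothalamic, mammillary, thalamic and ependymal lists lie left of 0, those of the preoptic, cholinergic, GABAergic, striatal and meningeal lists right of it, and myelin, astrocyte and clock lists centre near 0.

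Clock genes differed little in level averaged over the day. Of 18, 6 were higher, 7 were lower and 5 were not called, with a median of -0.06, which is near the background shares given above. Clock had the lowest value, -0.82. Per1 (0.28) and Per2 (0.30) were higher and Cry1 (-0.30) and Arntl (-0.20) lower in SCN-labelled libraries. The counts for the 18 genes moved with the fit. Adjusting for GC content gave 4 higher and 9 lower, with a median of -0.12. Leaving out the 4 libraries that stand apart gave 5 higher and 9 lower, with a median of -0.09. Immediate early genes, which report recent neuronal activity, were higher in 5 of 8 cases and lower in 0, with a median of 0.60. Among all genes tested, 36.3% were called higher. Npas4 ranged from 5.66 to 22.3 CPM (median 10.2) and from 2.96 to 12.2 CPM (median 4.83), with a difference of 1.03, and Arc, the activity regulated gene of that name, differed by 0.97. Fos itself was not called (0.09, adjusted p = 0.519).

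Transcript composition also moved with region. Across 15074 genes with a transcript in GENCODE vM21, the median difference went from -0.18 in the bin with the lowest of 5 GC contents (median 41.5%) to 0.15 in the bin with the highest (median 58.1%), with about equal numbers of genes per bin. In the lowest bin 62.9% of genes were called lower in SCN-labelled libraries, and in the highest bin 18.7%. The median log2 CPM of the highest bin minus that of the lowest ranged from -0.75 to 0.28 over SCN-labelled libraries and from -0.65 to -0.35 over ARC-labelled libraries. SCN-labelled libraries thus varied more among themselves in this measure. With a GC offset per library 11006 genes were called, of which 9023 were called in the main comparison. The large differences were little moved, with Agrp at -3.84, Six6 at -2.82, Hcrt at -9.29 and Chat at 5.40.

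**Figure D4:**
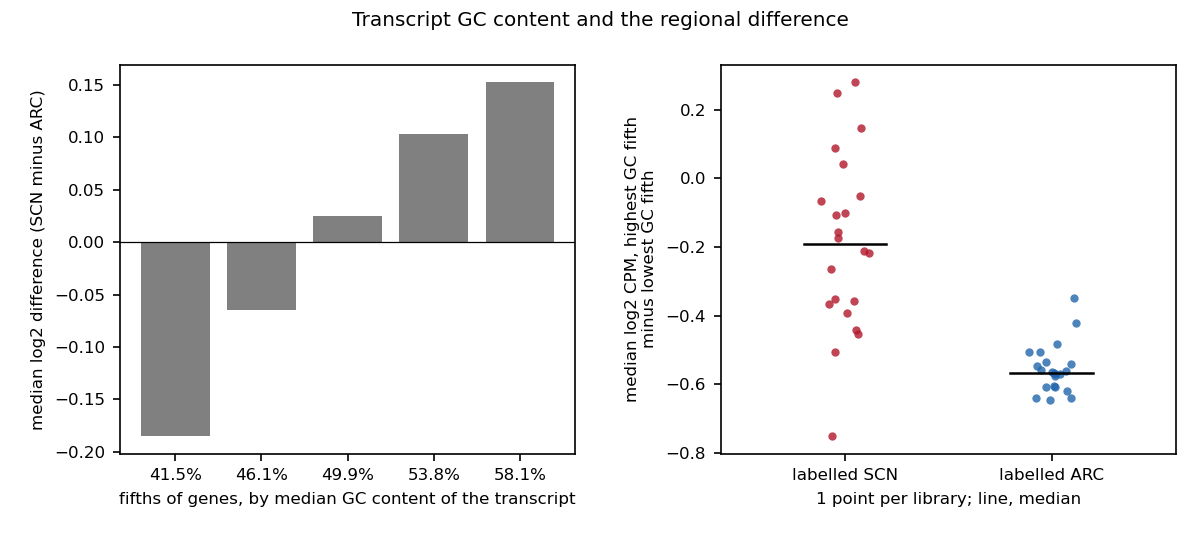
Left, the median log2 difference between the regions in each of 5 equal bins of genes by transcript GC content, as bars from 0, with the median GC content of each bin on the axis. Right, the median log2 CPM of the highest GC bin minus that of the lowest in each library, with 1 point per library and the median as a line, where SCN-labelled libraries spread from -0.75 to 0.28 and ARC-labelled libraries from -0.65 to -0.35.

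One SCN-labelled library was raised toward the level of the ARC-labelled libraries in a set of genes that includes Lcor, a nuclear receptor corepressor and the tenth largest ARC excess. Lcor stood at 5.88 CPM in SCN Hu ZT 2 replicate 1, between 0.279 and 1.14 CPM in the other 21 SCN-labelled libraries, and at 4.40 CPM or more in all ARC-labelled libraries. The lowest ARC-labelled value lay in ARC Mu ZT 14 replicate 1 and the next lowest was 8.46 CPM. Among the 605 genes more than 2-fold lower in SCN-labelled libraries, SCN Hu ZT 2 replicate 1 held the highest SCN-labelled value in 109. SCN Hu ZT 22 held it in more of them, 140. The counts that follow were made for SCN Hu ZT 2 replicate 1 only, so they do not show whether other libraries had a similar set. In 30 of the 605 genes SCN Hu ZT 2 replicate 1 was over 2-fold higher than any other SCN-labelled library. In 25 of these it lay at or above the lowest ARC-labelled library. In 15 of the 25 it was within that range only through ARC Mu ZT 14 replicate 1, which stands apart, and in 10 it reached at least the second lowest ARC-labelled value. Zbed6, Zfp871 and Klhl11, chosen after their values were seen, showed the same pattern, with 17.3, 19.7 and 25.9 CPM in that library and at most 4.15, 2.26 and 6.17 CPM in the other SCN-labelled ones. In each of these genes, and in Lcor, the library lay above ARC Mu ZT 14 replicate 1 but below the next lowest ARC-labelled library. The highest SCN-labelled value of Syt10 lay in that library too, at 5.91 CPM, below every ARC-labelled one. It also had the lowest GC measure of all 44 libraries, -0.75. No gene of the SCN or ARC peptide lists, and no ventromedial, lateral hypothalamic, mammillary or cholinergic gene, had its highest SCN-labelled value there. The cause of the pattern was not tested.

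No difference between the arms in the regional comparison was detected. A region by arm term was called by edgeR's quasi-likelihood test for 0 of 15105 genes (0%), with 173 genes at an unadjusted p under 0.05 and 1 gene, 4933403O08Rik, called by DESeq2. Agrp differed by -3.73 in Hu and -3.57 in Mu, Six6 by -3.00 and -3.12, Chat by 5.54 and 5.50, and Hcrt by -8.96 and -9.25. That gene also had the smallest p of this term in edgeR (adjusted p = 0.673), and its only SCN-labelled value above 0.184 CPM was 1.016 CPM in SCN Hu ZT 2 replicate 1. In edgeR's test 4932438H23Rik, Fut7, Cenpq and Hmox1 followed, with an adjusted p that rounds to 1.

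A region by ZT term was called by edgeR's quasi-likelihood test for 0 of 15105 genes (0%), with 808 genes at an unadjusted p under 0.05 and 3 genes (Strip2, Skor2 and Gm45194, the last 2 named after their values were seen) called by DESeq2. The smallest p-values belonged to Hpx, Sgms2, Strip2, Gdnf and Birc5, all at an adjusted p of 0.878. Agrp was lower in SCN-labelled libraries at each of the 6 times, by -4.49 at ZT 18 to -3.15 at ZT 10. Pomc differed by -1.66 at ZT 6 (adjusted p = 0.118), the time of the library with 55.8 CPM, and between -4.44 and -3.28 at the other times. Six6 ranged from -4.64 at ZT 6 to -1.93 at ZT 18, with an adjusted p of 0.0611 at ZT 2. Vip was lower in SCN-labelled libraries at ZT 6 (-2.03, adjusted p = 0.000294) and was not called at any other time. Prok2 was higher at ZT 18 (1.61) and ZT 22 (1.83), both called, and not at the other times. None of these single times was tested against another.

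**Figure D5:**
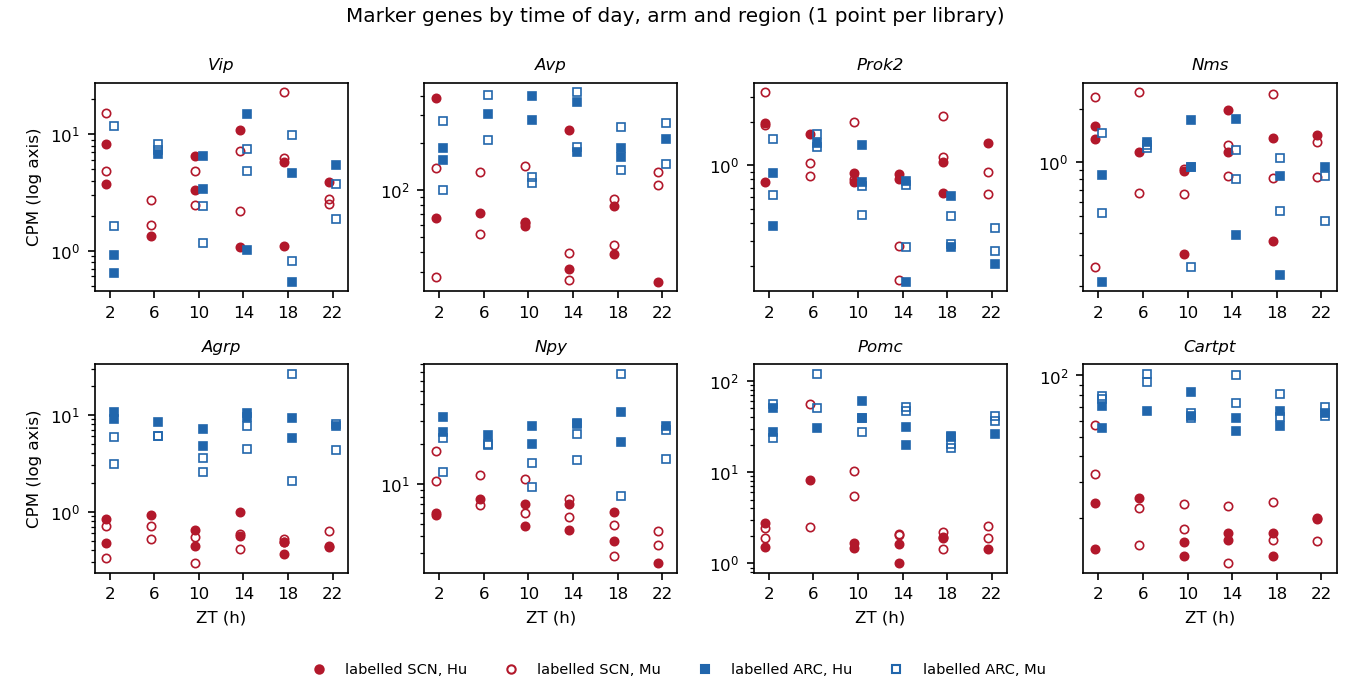
CPM of the 8 marker genes by ZT in hours, on log axes, with 1 point per library, SCN-labelled in red circles and ARC-labelled in blue squares, filled for Hu and open for Mu. Agrp is higher in ARC-labelled libraries at every time, a single SCN-labelled library at ZT 6 reaches 55.8 CPM of Pomc, and Vip, Prok2 and Nms mix at most times.

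Some genes varied together among libraries of a region. For Lhx1 in the 22 SCN-labelled and Agrp in the 22 ARC-labelled libraries, 16 pairs were tested with 2-sided permutation tests and Benjamini-Hochberg adjustment, on libraries that differ in arm and ZT. Lhx1 went with Six6 (r = 0.77, adjusted p = 0.00016; rho = 0.67, adjusted p = 0.00304) and with Vipr2 (r = 0.70, adjusted p = 0.0031; rho = 0.74, adjusted p = 0.00084). Its r with Oxt was the highest, 0.82 (adjusted permutation p = 8e-05; rho = 0.84, adjusted permutation p = 8e-05). These pairs gave r = 0.65, 0.66 and 0.77 without the 2 libraries farthest from the median of Lhx1. Lhx1 with Nms (r = 0.49, adjusted p = 0.0384; rho = 0.36, adjusted p = 0.158) fell to r = 0.14 without them, so that relation rests on those libraries. On residuals after arm and ZT it was r = 0.67 (adjusted p = 0.00154; rho = 0.57, adjusted p = 0.0126). The relation of Lhx1 with Vip did not pass (r = 0.04, adjusted p = 0.855; rho = 0.14, adjusted p = 0.563).

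In ARC-labelled libraries Agrp went with Npy, the peptide of the same neurons (r = 0.98, adjusted p = 8e-05; rho = 0.94, adjusted p = 8e-05), and r was 0.96 without the 2 libraries farthest from the median of Agrp. It also went with Ghrh (r = 0.76, adjusted p = 0.00016; rho = 0.72, adjusted p = 0.00084), with r = 0.68 without them. The relation with Tbx3 (r = 0.50, adjusted p = 0.0384; rho = 0.50, adjusted p = 0.0448) no longer passed without them, at r = 0.51 (adjusted p = 0.0627). That of Pomc with Agrp did not pass (r = -0.11, adjusted p = 0.695; rho = -0.12, adjusted p = 0.59). The smallest raw p these permutations can give is 1e-05.

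The genes most like the markers differed between the 2 marker sets. Over all 44 libraries, the mean standardized log2 CPM of Agrp, Npy, Pomc and Cartpt was most like Qrfp (r = 0.957), Nkx2-4 (0.952), Vgll2 (0.950), Slc6a3 (0.949) and Hcrt (0.949). Qrfp ranged from 0 to 0.0744 CPM (median 0) in SCN-labelled and from 0.551 to 3.14 CPM (median 1.82) in ARC-labelled libraries, without overlap. For Vip, Avp, Prok2 and Nms the nearest genes reached only r = 0.654 for Six3, 0.649 for Lrrc47, 0.641 for Lmnb1 and 0.633 for Gem. These values are a description over libraries of both regions, both arms and all times. A gene that differs strongly between the regions can reach a high r without varying with the markers inside a region.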

How the data were processed

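Brain RNA from 44 mouse libraries was compared by labelled region. The authors deposited raw gene counts for the whole series in 1 table, and per the submitters' processing notes reads were aligned with STAR. The version, the strand setting and the build used for the brain libraries are not given in the sources used here, so overlapping and antisense genes cannot be told apart. Columns were matched to samples by name, except that the Hu ZT 22 columns of both regions carry another replicate number than the 1 sample of their group and were assigned by region, arm and time. A further 27 columns of the table were not used.

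Of 20415 rows, 20329 carry a gene name, and the rest were kept under their gene identifiers. The 15105 genes that passed edgeR's filterByExpr were fitted with edgeR 4.0.16 (R 4.3.3), using TMM scaling, arm, ZT as a factor and region, the quasi-likelihood F test and Benjamini-Hochberg adjustment. The standard error is the absolute log2 difference divided by the square root of F. Region by arm and region by ZT were tested as added terms. The prior count for logged CPM was 2. On simulated counts this fit recovered 92.5%, 97% and 100% of genes changed by a log2 of 0.5, 1 and 2, with 7 false calls among 15077 genes. Only 67, 67 and 64 genes were changed there, far fewer than were called in the real data. The simulated libraries were drawn independently, with no GC trend and none that stand apart. These rates therefore hold for that simpler setting and may not hold for the real data. CPM values carry counting error as well, and rest on 23.7 to 47.1 × 1e6 counts per library.

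The members and gene lists were chosen with earlier results of these data known. Genes are named when they are 1 of 8 regional markers or a list member, among the 10 largest differences in each direction with a mean of at least 5 CPM in the higher region, among the 5 smallest p of each added term, or among the 5 genes most like each marker set. Some genes that this rule takes are not reported here, though counts and medians of lists include them. GC content came from GENCODE transcripts and promoters from RefSeq. The alternatives were DESeq2 1.42.0, other scalings, filters and covariates, single arms or times, a replicate block, each library left out, and 3 fits chosen after seeing the data.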

Additional observations from a re-analysis of the deposited data

How the results depend on the processing

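The call count stayed within 1.5 times the main one, between 9856 and 11852 genes, with DESeq2, other scalings, filters and covariates, and with libraries left out, and also within Hu (8964) and Mu (9465) alone. Within single times, with 6 to 8 libraries each, it was 2461, 7162, 5349, 4945, 6037 and 6389 for ZT 2, 6, 10, 14, 18 and 22 in that order. More than 2-fold differences numbered 1791 with no filter, 585 with at least 50 counts in 22 libraries and 1485 at ZT 6 alone. Leaving out each library in turn gave 10833 to 11110 calls, 942 to 1022 of them over 2-fold, and 0 calls of either interaction each time. DESeq2 called 1 gene for region by arm and 3 for region by ZT, and 5 genes (Neurod2, Neurod6, Slc30a3, Arhgap15 and Gm19410) were called for region by ZT without the 3 SCN-labelled libraries highest in Slc17a7.

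Of 161 genes named, 69 kept sign and call under all 65 alternatives, among them Agrp, Cartpt, Chat and Hcrt. Called values changed sign as follows, on the log2 scale. At ZT 2 alone this was Hmox1 (-0.051) and Npy2r (-0.091). At ZT 6 alone it was Birc5 (-0.93), Cyp19a1 (-1.08), Dlx1 (-0.43), Gbx2 (0.70), Lrrc47 (-0.20), Neurod6 (1.38), Nkx2-1 (-0.48), Npy2r (-0.24), Nts (-0.40), Prkcd (1.51), Prok2 (-0.38), Tcf7l2 (0.21) and Vip (-2.03). At ZT 18 alone it was Crh (0.83), Gpr176 (0.20), Hpx (-1.99), Neurod2 (-2.53), Rasd1 (0.28), Slc17a7 (-2.46) and Zfhx3 (0.54). At ZT 22 alone it was Crym (-0.0100), Gal (0.61), Gdnf (-1.00), Il2rg (-0.27), Neurod2 (-2.44), Slc17a7 (-3.56), Strip2 (-0.13), Tac2 (0.69) and Zfhx3 (0.42). With a GC offset it was Cenpq (0.015), Lmnb1 (-0.081), Lrrc47 (-0.14), Rag2 (0.0079) and Ugt8a (0.040), and in Hu alone Cenpq (0.059). A further 146 values of 30 genes changed sign while called in neither fit. Prok2 missed the threshold in Hu alone (0.75, adjusted p = 0.0559), and Nms passed it without the libraries that stand apart (0.53, adjusted p = 0.0494) or without ARC Hu ZT 10 replicate 1 (0.51). The cause was not tested.

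Residuals after arm and ZT gave r = 0.67 for Lhx1 with Avp and with Nms (permutation test, adjusted p = 0.00154 for each), and Agrp with Pomc r = 0.06. With a replicate block 11013 genes were called, 1025 of them over 2-fold, and 9 named genes changed their call. Beside 3 blood genes these were Gal (-0.72), Hmx2 (-0.92), Hmx3 (-1.07) and Tac2 (-0.48), now called, and Birc5 (0.30) and Prkcd (-0.77), no longer called. The labels do not say whether equal replicate numbers in the 2 regions mark 1 animal. Over all genes 6 of 10 pairs of groups had a correlation of deviations over 0.1 (median 0.19, range -0.19 to 0.31). In Hba-a1, Hbb-bs and Alas2, replicates 1 and 2 differed in the same direction in both regions in 10 of 10 groups. Hbb-bt did so in 9 of 10, and Hba-a1, Hbb-bs and Alas2 were called higher with the block. The main fit did not take the numbers to pair the samples, so its calls ignore any such pairing. Whether the numbers mark 1 animal was not tested. The depth leaves genes such as Npvf and Barhl1 with few counts in SCN-labelled libraries, so a lower level there is not separable from absence. The alternatives without the libraries that stand apart, without the 3 libraries and with the GC offset were chosen after seeing the data.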
